A study of Mus musculus with 8 samples.

Results

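The genes described here are the heat shock proteins, the DNAJ co-chaperones and the subunits of the cytosolic chaperonin TRiC, chosen by gene name from the count table of CNOT7&8 KO and Zp3-Cre control oocytes. A gene was a member if its symbol began with Hspa to Hsph and a digit, with Hsp90, with Dnaja, Dnajb or Dnajc and a digit, or with Cct and a digit from 2 to 8, or if it was Tcp1. Symbols that end in -ps and a number were left out, which removed 10 pseudogene rows with at most 25 counts in any library. This left 85 of the 46078 genes in the table, of which 80 had a count in at least 1 library and 75 passed the filter on low counts and were tested. The name rule also kept the pseudogenes Dnaja1-ps and Dnajc19-ps and Hspg2 (perlecan, a proteoglycan of the basement membrane), which encodes no chaperone. Classes below follow gene symbols, which do not show that every other member acts as a chaperone. The 10 members that were not tested had at most 7 counts in any library. They were Cct8l1, Dnaja1-ps, Dnajb7, Dnajb8, Dnajc19-ps, Dnajc22, Hspa12b, Hspb2, Hspb7 and Hspb9, and 5 of them had no count at all.

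The study compared total RNA of germinal vesicle (GV)-stage oocytes from 2 groups of 4 libraries, each library made from 100 oocytes. KO oocytes (CNOT7&8 KO) came from mice in which floxed alleles of Cnot7 (fl/fl) and of Cnot8 (fl/fl) were joined with Zp3-Cre, and control oocytes carried Zp3-Cre with no floxed allele named in the label. Cnot7 and Cnot8 encode deadenylases of the CCR4–NOT complex, which shortens poly(A) tails of mRNAs, and Zp3-Cre is active in growing oocytes, so that RNA made before the deletion can remain. Females of C57BL/6J background, 4 weeks old, gave GV oocytes 48 h after PMSG, a hormone that stimulates follicles, and cumulus cells were stripped with hyaluronidase. The number of mice behind each library is not given in the sources used here, so p-values measure the spread between these libraries.

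Chaperones hold or refold proteins that have not reached their final shape. HSP70 proteins bind short hydrophobic stretches in a cycle driven by ATP, J-domain proteins of the DNAJ classes bring them clients and start ATP hydrolysis, and HSP110 proteins such as Hsph1 exchange the nucleotide. HSP90 acts later, on kinases, receptors and other nearly folded clients, small HSPs hold unfolded proteins without ATP, and TRiC is a closed double ring in which 8 different subunits fold actin, tubulin and other proteins. Under heat or other protein damage, heat shock factor 1 binds heat shock elements in the promoters of many of these genes. A fully grown oocyte is transcriptionally silent, and it lives on stored mRNAs and proteins until the embryo's genome is activated.

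The heat shock element is built from NGAAN units that alternate in orientation, and a run of 3 such units was searched on both strands in the RefSeq promoters of the GRCm38.p6 assembly, which reach from upstream of the start site into the first bases of the transcript. Of the 68 members with a promoter in that table, 4 (5.88%) held such a run, against 179 of 27025 promoters (0.662%). The 4 are shown because they hold the letters of this element, and they are written 5′ to 3′ on the strand of the gene, with the matching units in capitals.
Dnajb6, chr5:29735848-29735868, plus strand: ccgaGAATCTTCCGGAAcgct
Hspd1, chr1:55088055-55088080, minus strand: ggccTTCCGGAAGGTTCTAGAAcgga
Hspe1, chr1:55088055-55088080, plus strand: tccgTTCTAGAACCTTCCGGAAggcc
Hsph1, chr5:149636284-149636304, minus strand: cagaTTCTGGAAAGTTCtcct
Hspd1 and Hspe1 encode the mitochondrial chaperonin HSP60 and its lid HSP10, and they lie head to head, so that their windows are the same stretch read on opposite strands. The first base in capitals lay 46 bases before the start site in Dnajb6, 144 bases before it in Hspd1 and 89 bases before it in Hspe1, and 16 bases after the nearer of the listed start sites in Hsph1. With only 2 alternating units required, 20 of the 68 members (29.4%) and 17% of all promoters matched. These are matches of letters within a short window, and other members can carry elements outside it or with another spacing.

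Library totals ran from 14943671 to 44092144 counts (control) and from 8639444 to 26784110 counts (KO), and members took 1.15% to 1.49% of them. Values are CPM, counts relative to the library size after scaling by TMM, a method that takes most genes as unchanged, with factors of 0.849 to 0.943 (control) and 1.07 to 1.14 (KO). A count of 3 corresponded to at most 0.326 CPM, a floor that covers counting error only. Cnot8 was at 21.0% and Cnot7 at 77.1% of the control level in KO. These percentages are RNA counted per gene, whereas the study reported by immunoblot that both proteins were absent in KO oocytes. Control replicate 1 lay above the other 3 controls for many members. The summed level of 10 oocyte markers was 20100 to 23400 CPM in control and 16600 to 19300 in KO, and that of 12 granulosa and cumulus markers was 118 to 155 and 178 to 227 CPM, with 5 of the 11 tested higher and 1 lower in KO. The highest of these 12 went opposite ways, Nr5a2 from a mean of 56.6 to 122 CPM and Cyp19a1 from 58.5 to 31.3 CPM. Inha, Inhba and Fst had higher means in KO, but KO replicate 4 lay among or below the controls. These markers were named after their values were seen. For 8 blood and immune markers the sums were 0.83 to 1.83 and 3.26 to 5.37 CPM, with Hba-a1, Hba-a2, Hbb-bs and Hbb-bt at 0 counts, and for 7 theca and stroma markers 2.99 to 5.68 and 3.02 to 5.11 CPM. The part of other cells in the differences below was not tested.

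More chaperone mRNAs were lower than higher in CNOT7&8 KO oocytes under TMM scaling, with a few strong increases among them. By edgeR's quasi-likelihood test at an adjusted p of at most 0.05, 35 of the 75 tested members (46.7%) were lower and 12 (16.0%) were higher in KO, and 28 were neither. The log2 fold changes of the lower members ran from −1.25 (Hspa2) to −0.29 (Hsp90ab1). CPM are shares of a library made from pooled oocytes, so less of an mRNA in every oocyte and fewer oocytes that hold it cannot be told apart. Over all 19241 tested genes, 24.1% were lower and 31.2% higher, and the median log2 fold change was −0.31 for members and 0.12 for all genes. Library scaling moved these counts. With library sizes alone, the log2 fold changes of all genes rose by a median of 0.29, and 19 members were lower and 18 higher. With TMM factors from genes of at least 10 CPM, 21 were lower and 18 higher. The gap between both medians was −0.43 under TMM, under library sizes alone and under the other scalings alike. Rescaling moves all genes by nearly the same amount, so it could hardly change this gap. With the filter of 1 CPM in 4 libraries the gap was −0.33, and without a low-count filter −0.675. Under TMM scaling, KO and control values did not overlap for 46 of the 75 members (61.3%), 35 of them lower and 11 higher, against 48.4% of all tested genes.

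Under TMM scaling abundant genes were more often lower than higher, and most tested members were abundant. Among the 8728 genes whose mean reached 10 CPM, 41.9% were lower and 20.9% higher, and the median log2 fold change was −0.26. The 53 members above that level had 32 lower (60.4%) and 7 higher (13.2%), with a median of −0.45. The 22 members below it had 3 lower (13.6%) and 5 higher (22.7%), against 9.25% and 39.7% of the 10513 genes of that range. Their median was 0.60, beside 0.74 for those genes. The plot of level against change shows this slope, with the members inside the cloud of all genes.

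**Figure D1:**
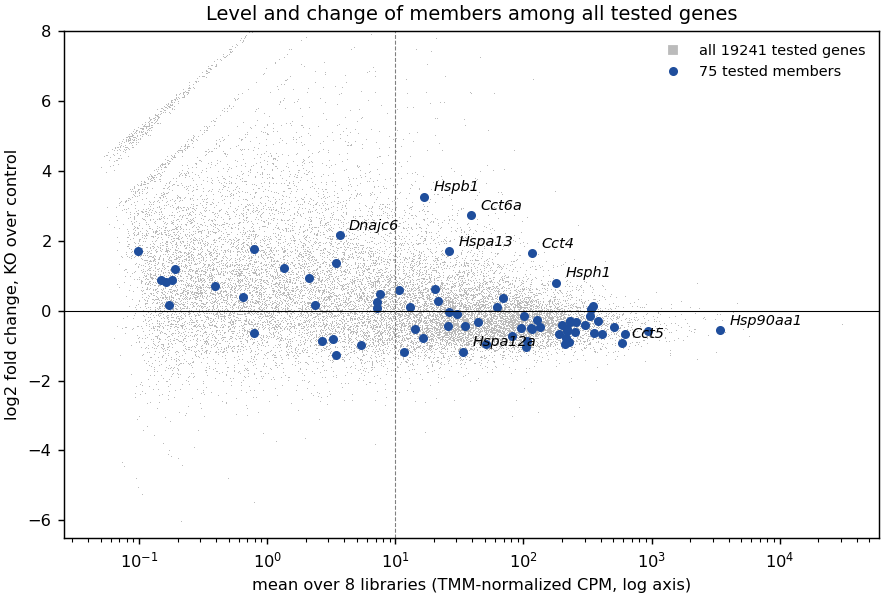
Each grey point is 1 of the 19241 tested genes and each blue point 1 of the 75 tested members, with the mean TMM-normalized CPM over 8 libraries on a log x axis and the log2 fold change of KO over control on the y axis. The dashed line marks 10 CPM, 54 genes lie above the top of the axis, and the members at 10 CPM or more run from −1.19 to 3.27, with Hspb1, Cct6a, Hspa13 and Cct4 above 1.

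With a 2-fold threshold added, 8 members were upregulated (10.7%) and 4 downregulated (5.33%), against 23.8% and 6.56% of all tested genes. The upregulated members were Hspb1, Cct6a, Dnajc6, Hspg2, Hspa13, Cct4, Dnajc27 and Hspa1a, and the downregulated members Hspa2, Dnajb12, Hspa12a and Dnajc7. With library sizes alone, the 8 upregulated members were joined by Dnajc24 and Hsph1, and the 4 downregulated members kept an adjusted p under 0.05 but fell short of 2-fold, with log2 fold changes from −0.97 to −0.74.

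**Figure D2:**
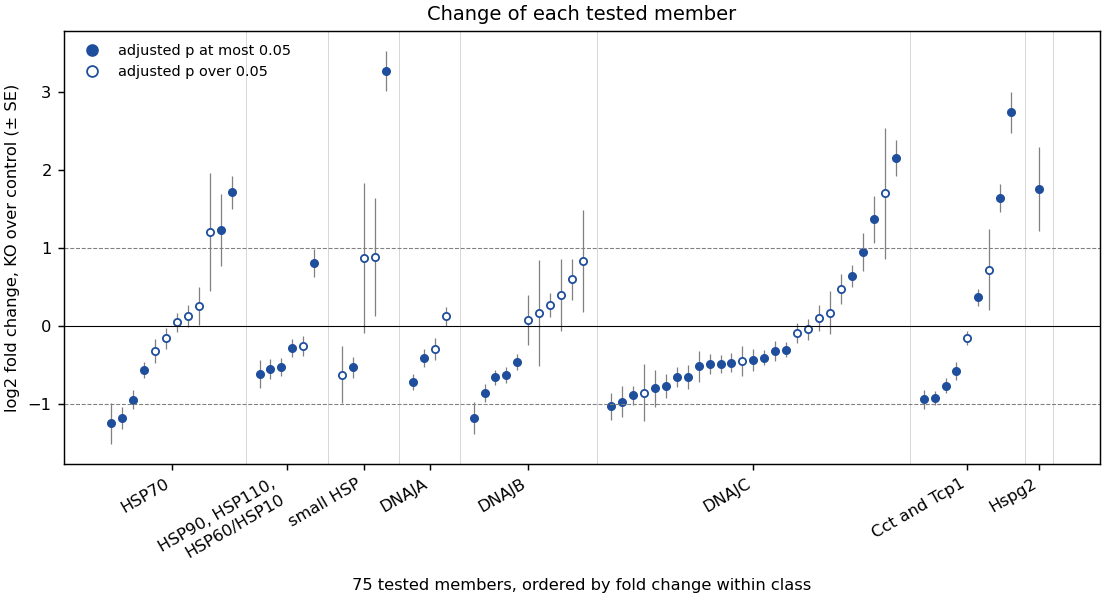
Each point is the log2 fold change of KO over control for 1 tested member, ordered within its class, with its standard error, filled where the adjusted p was at most 0.05. Dashed lines mark 2-fold, and under this TMM scaling most points of the DNAJC and TRiC classes lie below 0, while 1 to 3 members of the HSP70, small HSP, DNAJC and TRiC classes lie above 1.

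TRiC subunits changed in both directions. TRiC works as 1 copy of each of 8 subunits per ring, so levels of its mRNAs were set side by side per kb of transcript. The longest protein-coding transcript in GENCODE vM21 was used, or for Cct6a, which has none there, the longest of any kind. Of the 8 subunits, Cct6a, Cct4 and Cct7 rose (37.5%) and Cct2, Cct5, Cct8 and Tcp1 fell (50%), while Cct3 did not pass the test. Over all tested genes 31.2% were higher and 24.1% lower, and among those of at least 10 CPM 20.9% and 41.9%. For all 8 subunits the TMM-scaled values of both groups did not overlap, against 48.4% of all tested genes and 56.1% of those of at least 10 CPM. The direction of Cct3 depended on this scaling, with a log2 fold change of −0.16 under TMM and 0.13 with library sizes alone.

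The lowest subunits were those that rose. Cct6a (ENSMUSG00000029447, chromosome 5 from 129786998 to 129846371 of GRCm38, plus strand) had 14.3, 7.11, 13.3 and 5.75 CPM in control replicates 1 to 4 and 61.5, 59.8, 75.1 and 76.5 CPM in KO replicates 1 to 4. All KO libraries lay above all controls, which themselves spread over more than 2-fold, and the log2 fold change was 2.74 (SE 0.26, adjusted p = 5.13e-06, edgeR). Some 15% of the 100-base windows of its transcripts also occur in Psph, an antisense neighbor that rose from a mean of 2.01 to 5.94 CPM. Cct4 (ENSMUSG00000007739, chromosome 11 from 22990519 to 23003780, plus strand), which shares no such window with another gene, had 79.1, 45.5, 60.2 and 42.6 CPM in control and 165, 165, 182 and 198 CPM in KO. Its KO libraries were all above 160 CPM and its controls all below 80, with a log2 fold change of 1.64 (SE 0.18, adjusted p = 1.51e-05, edgeR). Cct7 rose less, from 68.8, 56.1, 58.9 and 56.5 CPM to 77.8, 75.4, 83.4 and 72.8 CPM, a log2 fold change of 0.36 (SE 0.11, adjusted p = 0.0151). The gap between its groups was small, between 68.8 and 72.8 CPM.

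The subunits that fell were among the most abundant. Cct5 (ENSMUSG00000022234, chromosome 15 from 31590800 to 31601804, minus strand) had 779, 776, 789 and 746 CPM in control and 423, 434, 376 and 393 CPM in KO, a log2 fold change of −0.93 (SE 0.09, adjusted p = 7.78e-06, edgeR). Its controls were close together and every KO library lay between 376 and 434 CPM. Cct8 was at 344, 245, 268 and 256 CPM in control and at 145, 152, 133 and 150 CPM in KO, a log2 fold change of −0.94 (SE 0.12). Cct2 went from 277, 259, 275 and 267 to 166, 170, 149 and 150 CPM, a log2 fold change of −0.77 (SE 0.10). Tcp1, the subunit after which the complex is named, had 320, 243, 246 and 246 CPM in control and 178, 179, 161 and 187 CPM in KO, with a log2 fold change of −0.58 (SE 0.12). These falls held with library sizes alone, where they were −0.65 for Cct5, −0.65 for Cct8, −0.49 for Cct2 and −0.29 for Tcp1. Cct3 had 378, 339, 337 and 345 CPM in control and 318, 310, 305 and 323 CPM in KO, a log2 fold change of −0.16 (SE 0.09, adjusted p = 0.16) that became 0.13 with library sizes alone and 0.09 with TMM factors from genes of at least 10 CPM.

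Per kb of transcript the subunits were closer to each other in KO than in control. In control, Cct5 stood at 417 ± 9.99 CPM per kb (SD, n = 4), followed by Cct3 at 177 ± 9.68, Cct2 at 138 ± 4.2, Cct8 at 116 ± 18.7, Tcp1 at 108 ± 15.3, Cct7 at 24.6 ± 2.44, Cct4 at 22.9 ± 6.73 and Cct6a at 4.12 ± 1.76. The control ranges of Cct2, Cct8 and Tcp1 were not all apart, since Cct8 overlapped both Cct2 and Tcp1, and those of Cct7 and Cct4 overlapped too. In KO, Cct5 was at 219 ± 14.4 CPM per kb, Cct3 at 159 ± 4.07, Cct2 at 81.0 ± 5.52, Tcp1 at 72.1 ± 4.47, Cct4 at 71.5 ± 6.38, Cct8 at 60.6 ± 3.56, Cct7 at 31.7 ± 1.85 and Cct6a at 27.8 ± 3.58. There, the ranges of Cct2, Tcp1 and Cct4 overlapped each other, and so did those of Cct7 and Cct6a. The ratio of the highest to the lowest subunit was 72.1, 145, 78.6 and 172 in control replicates 1 to 4 and 9.11, 9.61, 6.63 and 7.11 in KO. A ratio within a library does not depend on the scaling of libraries. Cct5 exceeded Cct4 by 13.2 to 23.5 times in control and by 2.66 to 3.53 times in KO. As a share of the summed TRiC level per kb, Cct6a went from 0.404% ± 0.155 to 3.85% ± 0.565 (SD, n = 4 each), Cct4 from 2.25% ± 0.522 to 9.90% ± 0.977, and Cct5 from 41.5% ± 2.11 to 30.3% ± 1.41. The sum itself was 964 to 1090 CPM per kb in control and 693 to 736 in KO. These ratios describe values already tested gene by gene.

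**Figure D3:**
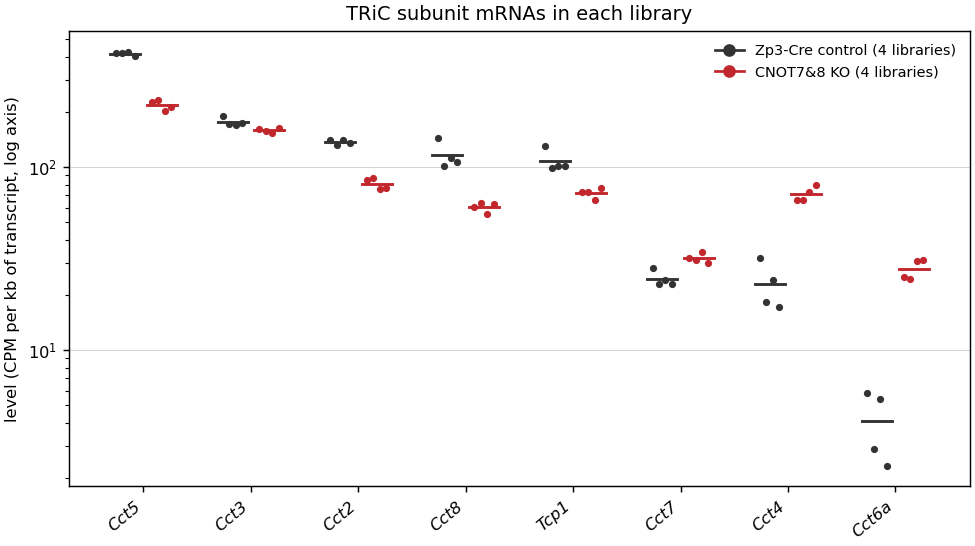
Each point is the level of 1 TRiC subunit mRNA in 1 library, in CPM per kb of transcript on a log axis, and the lines are means of 4 libraries. From left to right the control means fall from 417 for Cct5 to 4.12 for Cct6a, while the KO means run from 219 to 27.8.

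The testis paralog Cct6b stayed at a low level, between 0.146 and 0.476 CPM in control and between 0.341 and 0.617 CPM in KO (log2 fold change 0.72, SE 0.52, adjusted p = 0.26). This subunit takes the place of Cct6a in testis, and it was listed near the floor of detection in both groups. Cct6b was named after its values were seen.

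The heat-inducible chaperones did not move as a group. Of the 10 on the list of targets of heat shock factor 1, Hspb1, Hsph1 and Hspa1a were higher, Dnajb1, Hspe1, Hsp90aa1 and Hspa8 were lower, and Hspa1b, Hspd1 and Dnaja1 did not pass the test. Both directions were common at large, with 31.2% of all tested genes higher and 24.1% lower. Among genes of at least 10 CPM, 20.9% were higher and 41.9% lower. The largest rise of any member was that of Hspb1 (ENSMUSG00000004951, chromosome 5 from 135887919 to 135889563, plus strand), a small HSP that binds unfolded proteins and actin. It had 2.27, 3.55, 4.42 and 2.48 CPM in control and 30.9, 28.5, 40.9 and 21.2 CPM in KO, so that the lowest KO library lay above 20 CPM and every control under 5. The log2 fold change was 3.27 (SE 0.26, adjusted p = 1.28e-06, edgeR). Some 42.7% of its 100-base windows also occur in Hsp25-ps1 or Gm9817. Hsp25-ps1 was near 0, with means of 0.036 CPM in control and 0.147 CPM in KO, and Gm9817 had means of 5.56 and 3.42 CPM. The sum of the granulosa and cumulus markers was higher in KO too, though not every marker was, as given above. The part of such cells in the rise of Hspb1 was not tested.

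Hsph1 rose from a much higher count. It had 181, 109, 123 and 109 CPM in control and 206, 197, 225 and 288 CPM in KO, a log2 fold change of 0.81 (SE 0.18, adjusted p = 0.0022, edgeR), with no overlap and no window shared with another gene. Without control replicate 1, its highest control, the log2 fold change was 1.01. Hspa8, the constitutive HSP70 on which Hsph1 acts, fell from 1313, 1037, 1076 and 1033 CPM to 737, 786, 714 and 775 CPM, a log2 fold change of −0.57 (SE 0.11, adjusted p = 0.00076). The ratio of Hsph1 to Hspa8 per kb was therefore 0.066 to 0.087 in control and 0.158 to 0.234 in KO. Hspa8 shares 63.4% of its windows with pseudogenes, so its own counts are uncertain.

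The classical stress-induced HSP70 genes were near the bottom of the range. Hspa1a had 0.428, 0.691, 1.22 and 0.947 CPM in control and 1.41, 1.32, 3.64 and 1.09 CPM in KO, a log2 fold change of 1.23 (SE 0.46, adjusted p = 0.038, edgeR) with overlapping groups. Without KO replicate 3 the log2 fold change was 0.69 (adjusted p = 0.18), and Hspa1a also missed the threshold without control replicate 1, 2 or 4. Hspa1b, its neighbor with a near-identical coding sequence, had 4.87, 7.60, 5.78 and 8.16 CPM in control and 7.82, 7.09, 11.2 and 5.45 CPM in KO, a log2 fold change of 0.26 (SE 0.25, adjusted p = 0.40). Of their windows, 56.5% of Hspa1a and 49.9% of Hspa1b occur in each other, in Hspa1l or in Gm20481, so reads of the 2 genes are not fully told apart.

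The remaining inducible members were at high levels and lower in KO or close to control. Hsp90aa1, the inducible cytosolic HSP90, was the highest member per kb in both groups, with 5045, 3557, 4002 and 3766 CPM in control and 2790, 2928, 2456 and 2988 CPM in KO. Under TMM scaling its groups did not overlap, and the log2 fold change was −0.55 (SE 0.13, adjusted p = 0.0028, edgeR). With library sizes alone it was −0.27 (adjusted p = 0.043, edgeR). Some 47.55% of the windows of Hsp90aa1 also occur in other genes, so its own counts are uncertain too. Dnajb1, the J-protein that opens the HSP70 cycle in the heat shock response, fell from 233, 239, 232 and 219 CPM to 147, 155, 148 and 135 CPM, a log2 fold change of −0.66 (SE 0.09, adjusted p = 0.000103). Hspe1 went from 133, 134, 155 and 130 CPM to 92.3, 110, 94.9 and 83.5 CPM, a log2 fold change of −0.54 (SE 0.12, adjusted p = 0.0019) that was −0.25 with library sizes alone (adjusted p = 0.090) and −0.29 with TMM factors from genes of at least 10 CPM (adjusted p = 0.055). Its partner Hspd1, which reads the same promoter element from the other strand, had 175, 124, 131 and 126 CPM in control and 119, 126, 106 and 113 CPM in KO, a log2 fold change of −0.26 (SE 0.13, adjusted p = 0.11) that was 0.03 with library sizes alone and −0.13 without control replicate 1. Dnaja1 had 559, 402, 371 and 366 CPM in control and 335, 349, 331 and 366 CPM in KO, and it did not pass the test (log2 fold change −0.30, SE 0.14, adjusted p = 0.079; −0.14 without control replicate 1). Of the 4 members with a 3-unit heat shock element, Hsph1 was thus higher, Hspe1 lower under TMM but not under the 2 scalings just given, Dnajb6 lower (log2 fold change −0.63, adjusted p = 0.000275), and Hspd1 not called. Dnajb6 is named for its promoter, after its values were seen.

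**Figure D4:**
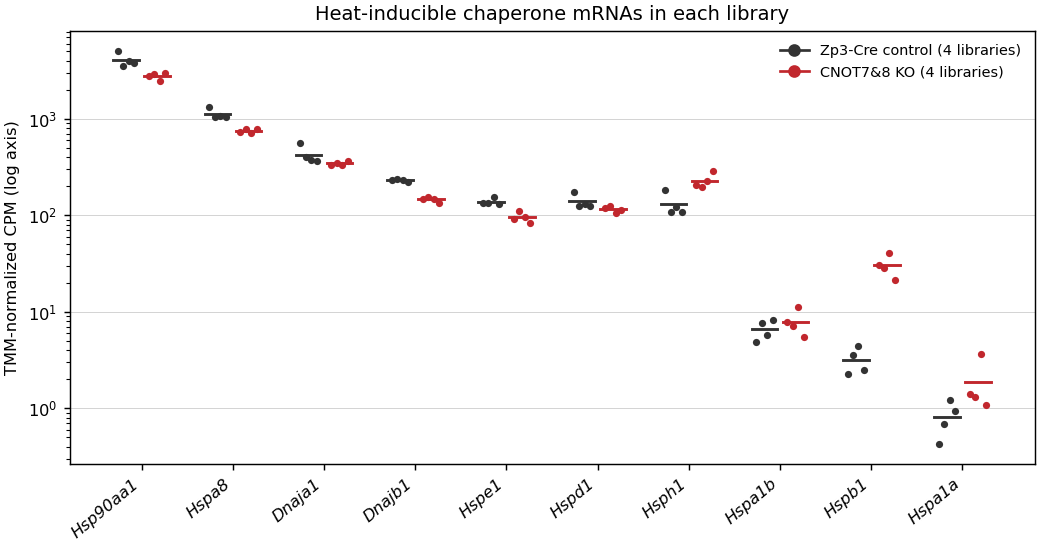
Each point is the TMM-normalized CPM of 1 heat-inducible chaperone in 1 library on a log axis, with lines at the means of 4 libraries. KO points lie above control for Hspb1 and Hsph1, below control for Hsp90aa1, Hspa8, Dnajb1 and Hspe1, and for Hspa1b the groups overlap, with KO replicate 3 above all controls.

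All 3 HSP90 genes were lower at the threshold, but not under every scaling or without every library. Hsp90ab1, the constitutive cytosolic form, had 300, 245, 245 and 222 CPM in control and 201, 222, 200 and 207 CPM in KO, with a log2 fold change of −0.29 (SE 0.11, adjusted p = 0.044) that was 0.0007 with library sizes alone and −0.19 without control replicate 1 (adjusted p = 0.070). It was named, as the third gene of its class, after its values were seen. Per kb, Hsp90aa1 exceeded Hsp90ab1 by 11.2 to 13 times in control and by 9.43 to 11.1 times in KO. Hsp90b1 (GRP94), the form in the endoplasmic reticulum (ER), fell from 438, 252, 255 and 273 CPM to 192, 206, 164 and 233 CPM, a log2 fold change of −0.62 (SE 0.18, adjusted p = 0.0116). Without control replicate 1 it was −0.39, and with library sizes alone −0.32 (adjusted p = 0.10).

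Among the ER chaperones, Hsp90b1 and 3 J-proteins fell. Dnajb11, which feeds clients to the ER HSP70, was at 164, 132, 123 and 129 CPM in control and at 76.6, 79.1, 68.1 and 77.5 CPM in KO, a log2 fold change of −0.87 (SE 0.12, adjusted p = 7.62e-05, edgeR). Dnajc3, which also inhibits the kinase PERK, fell from 618, 475, 485 and 447 CPM to 320, 340, 267 and 353 CPM, a log2 fold change of −0.66 (SE 0.13, adjusted p = 0.000992). Dnajc10, an ER disulfide reductase with a J-domain, fell from 129, 102, 113 and 100 CPM to 74.2, 89.8, 70 and 81.8 CPM, a log2 fold change of −0.49 (SE 0.12, adjusted p = 0.0049), and did not pass with library sizes alone (−0.20). The ER HSP70 itself, Hspa5 (BiP), had 361, 221, 223 and 220 CPM in control and 202, 208, 194 and 215 CPM in KO, a log2 fold change of −0.32 (SE 0.16, adjusted p = 0.098). Its KO libraries lay just under the 3 lower controls, and without control replicate 1 the value was −0.11. Dnajb9, a J-protein induced by ER stress, had 11.1, 7.5, 8.1 and 7.58 CPM in control and 9.01, 8.51, 14.7 and 19.4 CPM in KO, with overlapping groups (log2 fold change 0.60, SE 0.26, adjusted p = 0.070). It passed the threshold under 9 of the alternative settings, with a log2 fold change of 0.76 without control replicate 1.

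Hspa13, an HSP70 of the ER without the substrate-binding domain of its relatives, rose. It (ENSMUSG00000032932, chromosome 16 from 75745431 to 75767104, minus strand) had 17.9, 9.57, 11.8 and 9.69 CPM in control and 37.6, 38.9, 35.9 and 49.0 CPM in KO, a log2 fold change of 1.71 (SE 0.21, adjusted p = 2.91e-05, edgeR). The lowest KO library, at 35.9 CPM, lay above the highest control, at 17.9, and no window of its transcripts occurs in another gene.

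Of 13 HSP70 genes, 12 were tested, with 2 higher (16.7%, Hspa13 and Hspa1a), 4 lower (33.3%, Hspa2, Hspa12a, Hspa8 and Hspa14) and 6 not called, against 31.2% higher and 24.1% lower over all tested genes. Hspa2, the HSP70 that male germ cells need in meiosis, was low throughout, with 3.82, 5.08, 5.92 and 4.66 CPM in control and 1.41, 1.43, 2.71 and 2.42 CPM in KO, a log2 fold change of −1.25 (SE 0.26, adjusted p = 0.0017, edgeR). Hspa12a, a distant relative of HSP70, fell from 52.1, 52.7, 42.4 and 40.5 CPM to 17.6, 21.1, 21.1 and 23.0 CPM, a log2 fold change of −1.18 (SE 0.14, adjusted p = 2.72e-05). Neither gene had overlapping groups, and their falls were −0.97 and −0.89 with library sizes alone. Hspa4 (log2 fold change 0.05, SE 0.12) and Hspa4l (−0.16, SE 0.14), the other HSP110-type members of this name class, and the mitochondrial Hspa9 (0.12, SE 0.14) were not called. These 3 and Hspa14 were named after their values were seen.

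**Figure D5:**
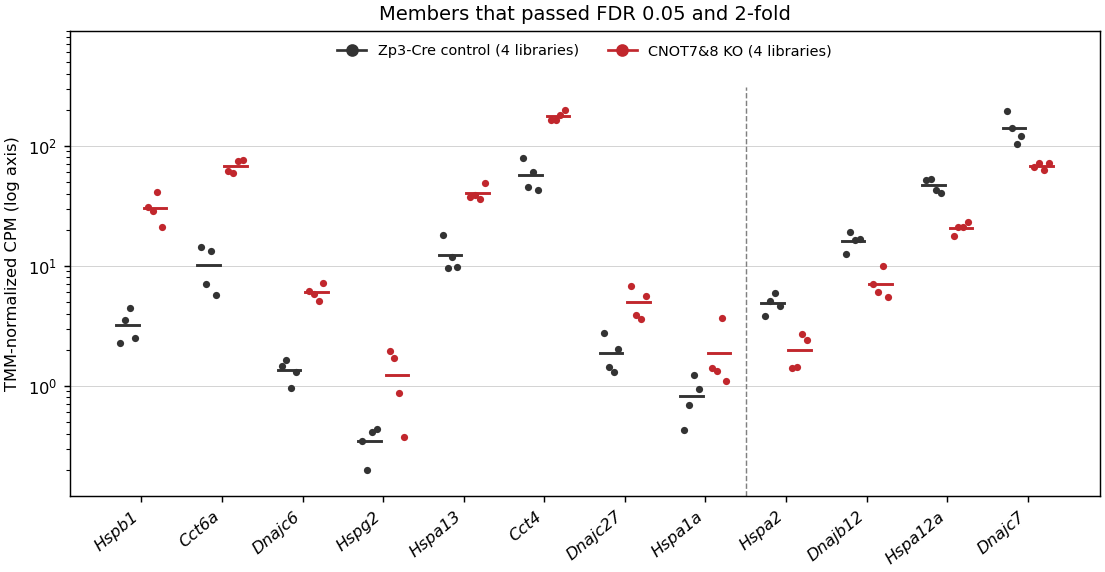
Each point is the TMM-normalized CPM of a member that passed both thresholds in 1 library, on a log axis, with lines at the means of 4 libraries and the downregulated genes to the right of the dashed line. The groups are apart for 10 of the 12 genes and overlap for Hspg2 and Hspa1a.

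J-proteins made up the largest class, with more of them lower than higher under TMM scaling. Of the DNAJA genes, 4 were tested, with 2 lower and 2 not called. Of the DNAJB genes, 11 were tested, with 5 lower and 6 not called. Of the DNAJC genes, 27 were tested, with 15 lower, 4 higher and 8 not called, and a median log2 fold change of −0.44. The lower shares were 50%, 45.5% and 55.6%, against 24.1% over all tested genes and 41.9% among those of at least 10 CPM. The higher shares were 0%, 0% and 14.8%, against 31.2% and 20.9%. With library sizes alone, the DNAJC genes that passed as lower were Dnajc3, Dnajc7, Dnajc19, Dnajc21 and Dnajc30. Those that passed as higher were then Dnajc5g, Dnajc6, Dnajc16, Dnajc24 and Dnajc27, so the excess of lower genes in this class depended on the scaling. Dnajc5g, Dnajc19, Dnajc21 and Dnajc30 were named after their values were seen. Dnajb12, a J-protein of the ER membrane that acts in the removal of misfolded membrane proteins, had 12.6, 19.0, 16.3 and 16.7 CPM in control and 7.06, 6.04, 9.87 and 5.48 CPM in KO, a log2 fold change of −1.19 (SE 0.21, adjusted p = 0.000494, edgeR). Dnajc7, whose TPR repeats bind both HSP70 and HSP90, fell from 194, 141, 104 and 121 CPM to 66.7, 72.1, 62.7 and 71.6 CPM, a log2 fold change of −1.04 (SE 0.17, adjusted p = 0.000291). Its KO libraries were tight and its controls wide, and without control replicate 1 its fall was −0.84, still past the threshold on p but no longer 2-fold. The J-proteins with the highest level per kb in control were Dnajc11, which acts on the inner membrane of mitochondria, at 239 CPM per kb, and Dnajb4, a cytosolic partner of HSP70, at 237.5 CPM per kb. Dnajc11 fell from 561, 839, 786 and 825 CPM to 504, 500, 535 and 371 CPM, a log2 fold change of −0.66 (SE 0.15), and here control replicate 1 was the lowest control. Dnajb4 fell from 685, 552, 568 and 537 CPM to 411, 419, 409 and 459 CPM, a log2 fold change of −0.46 (SE 0.11). Neither passed the threshold with library sizes alone (adjusted p = 0.067 for Dnajc11 and 0.10 for Dnajb4).

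The J-proteins that rose had means under 10 CPM in both groups, except Dnajc16. Dnajc6 (auxilin, ENSMUSG00000028528, chromosome 4 from 101496648 to 101642799, plus strand), which recruits HSP70 to strip clathrin coats from vesicles, had 1.47, 1.63, 0.953 and 1.31 CPM in control and 6.19, 5.77, 5.12 and 7.15 CPM in KO, a log2 fold change of 2.15 (SE 0.23, adjusted p = 1.16e-05, edgeR). Its lowest KO library was above 5 CPM and its highest control below 2. Dnajc27, a small GTPase with a J-domain, had 2.75, 1.43, 1.29 and 2.04 CPM in control and 6.84, 3.90, 3.58 and 5.62 CPM in KO, a log2 fold change of 1.36 (SE 0.30, adjusted p = 0.0022). The other 2 that were higher were Dnajc24, with 1.17 to 1.73 CPM in control and 2.50 to 3.30 in KO (log2 fold change 0.95, SE 0.24), and Dnajc16, with 13.2 to 18.9 and 23.9 to 25.4 CPM (0.64, SE 0.14). Both were named, after their values were seen, because they complete the count of 4.

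Among the genes with an Hspb symbol, classed here as small HSPs by name alone, 5 of 8 were tested. Hspb1 was higher, Hspb11 was lower (from 15.3 to 17.5 CPM in control to 10.8 to 12.6 in KO, a log2 fold change of −0.53, SE 0.14, adjusted p = 0.0055, but 0.14 with library sizes alone and 0.085 with TMM factors from genes of at least 10 CPM), and Hspb3, Hspb6 and Hspb8 stayed at or below 1.20 CPM in every library and were not called. Of these, all but Hspb1 were named after their values were seen. Hspg2, which is no chaperone, had 0.348, 0.197, 0.408 and 0.437 CPM in control and 1.95, 1.70, 0.863 and 0.375 CPM in KO, a log2 fold change of 1.76 (SE 0.54, adjusted p = 0.0148, edgeR). KO replicate 4 lay among the controls, and without KO replicate 2 the adjusted p was 0.053. Hspg2 is a matrix gene that follicle cells also express. The sum of the granulosa and cumulus markers given above was higher in KO as well, though not every marker was. The part of such cells in the rise of Hspg2 was not tested.

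The genes that act on these chaperones were taken from 4 lists and were counted under TMM scaling only. Over all tested genes 31.2% were higher and 24.1% lower, and among those of at least 10 CPM 20.9% and 41.9%. With library sizes alone all genes rose by a median of 0.29, so calls of small falls can depend on the scaling. Of 6 heat shock factor genes tested, Hsf2 and Hsf3 were upregulated (33.3%, against 23.8% of all tested genes). Hsbp1, which binds heat shock factor 1, was lower (16.7% of the list, log2 fold change −0.34, adjusted p = 0.022), and Hsf1 itself was not called (log2 fold change −0.17, SE 0.14, adjusted p = 0.31). Hsbp1 and Hsf1 were named after their values were seen. Hsf2, a factor known from development and germ cells, went from 8.20 ± 3.51 to 74.9 ± 9.75 CPM (SD, n = 4 each), a log2 fold change of 3.17 (SE 0.26, adjusted p = 1.51e-06). Hsf3 was at 0.062 ± 0.123 CPM in control, with counts in 1 library, and at 3.53 ± 1.43 CPM in KO (SD, n = 4 each).

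Of 33 co-chaperones of HSP70 and HSP90, 15 were lower (45.5%) and 7 higher (21.2%), with a median log2 fold change of −0.35. The shares were 24.1% and 31.2% over all tested genes, and 41.9% and 20.9% among those of at least 10 CPM. The upregulated ones were Grpel2, a nucleotide exchange factor of mitochondrial HSP70 (18.1 ± 4.0 to 66.3 ± 6.98 CPM, log2 fold change 1.87), Hspbp1 (0.838 ± 0.361 to 2.82 ± 0.876 CPM), Bag3 (0.195 ± 0.130 to 1.6 ± 0.806 CPM), the myosin chaperone Unc45b (0.051 ± 0.036 to 0.472 ± 0.359 CPM) and its relative Unc45a (0.650 ± 0.403 to 1.57 ± 0.466 CPM, with overlap). All but Grpel2 stayed at low levels. The downregulated ones were Nudc, an HSP90 partner of the dynein pathway (526 ± 53.8 to 228 ± 33.4 CPM, log2 fold change −1.21), Ahsa2, a relative of an HSP90 activator (52.8 ± 8.28 to 24.5 ± 2.68 CPM), Bag6 (25.3 ± 5.54 to 11.5 ± 3.38 CPM) and Fkbp8 (32.6 ± 12.9 to 12.5 ± 5.60 CPM, with overlap).

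Prefoldin, the hexamer that hands actin and tubulin to TRiC, and the phosducin-like regulators of TRiC made a list of 12 genes. Of these, 10 were lower (83.3%) and 2 higher (16.7%), with a median log2 fold change of −0.56. The shares were 24.1% and 31.2% over all tested genes, and 41.9% and 20.9% among those of at least 10 CPM. Pfdn4 fell from 498 ± 9.84 to 219 ± 11.5 CPM (log2 fold change −1.18, SE 0.09, adjusted p = 1.08e-06, edgeR), Pfdn1 from 171 ± 45.4 to 73.6 ± 17.4 CPM, and Pfdn6 from 64.3 ± 17.9 to 30.8 ± 6.92 CPM (SD, n = 4 each). Pdcl2, a phosducin-like gene of germ cells, rose from 0.153 ± 0.058 to 4.0 ± 1.46 CPM. Of 15 ER folding factors, 10 were lower (66.7%) and 2 higher (13.3%), beside the same background shares, with a median of −0.46. The downregulated ones were Pdia4, a disulfide isomerase (252 ± 41.5 to 108 ± 7.47 CPM, log2 fold change −1.22), Manf (81.2 ± 7.46 to 40.4 ± 2.94 CPM) and Sdf2l1 (13.4 ± 1.08 to 6.15 ± 0.558 CPM). The upregulated ones were Ero1l, an oxidase that recharges disulfide isomerases (1.69 ± 0.711 to 8.42 ± 0.723 CPM), and Xbp1, a transcription factor of the ER stress response (1.08 ± 0.362 to 3.13 ± 1.26 CPM).

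CCR4–NOT is drawn to mRNAs by proteins that read elements in the 3′UTR, so the longest annotated 3′UTR of each gene was searched. The elements were AUUUA, a core of AU-rich elements, UUUUAU, a core of the cytoplasmic polyadenylation element, and UGUAAAUA, the Pumilio response element. AUUUA occurred in 29 of the 35 lower members (82.9%) and in 8 of the 11 higher members with a 3′UTR (72.7%). Among all tested genes the shares were 65.1% of the lower and 75.5% of the higher. UUUUAU occurred in 68.6% of the lower and 45.5% of the higher members, against 52.2% and 61.7% of all lower and higher genes. UGUAAAUA occurred in 4 lower (11.4%) and 2 higher members (18.2%), against 11.1% and 13.1% of all lower and higher genes. Median 3′UTR lengths were 1035 bases in lower and 963 bases in higher members, against 921 and 1353 bases among all lower and higher genes. With 11 genes on the higher side these shares are a description of the members only.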

How the data were processed

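The authors prepared libraries from 100 GV oocytes each, with ribosomal RNA depletion and a stranded kit, and mapped 150-bp read pairs to GRCm38 (STAR 2.6.1d and edgeR 3.11 in the submitters' processing notes). They deposited raw read counts per gene for 8 libraries, without normalization. The counting tool, annotation and strand setting are not given in the sources used here, so reads of near-identical, antisense or overlapping genes may be misassigned.

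Groups came from the genotype labels. Genes that reached 0.2 CPM in at least 2 libraries entered edgeR 4.0.16 (TMM, quasi-likelihood test, R 4.3.3) with Benjamini-Hochberg adjustment over 19241 genes. DEGs passed an adjusted p of 0.05 and a 2-fold change. Single genes were also compared by an exact permutation test over 70 assignments, two-sided, on log2(CPM + 0.5), which gave p = 0.0286, the smallest possible, for the members whose groups did not overlap. Lengths, 3′UTRs and shared 100-base windows came from GENCODE vM21, with the longest protein-coding transcript, or the longest of any kind for genes without one, such as Cct6a. All 85 members were found there. Of these, 20 shared more than 10% of their windows with other genes, which makes their counts less certain. Among them were Dnajb6 (36.29%), Hspd1 (26.94%), Dnaja1 (24.04%) and Tcp1 (20.24%). Promoters came from RefSeq. The tests were checked on simulated data, and replicate libraries differed by more than counting noise in every pair.

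Members, classes, pathway lists and markers were chosen with earlier results of these data known. Genes named with values were the DEGs, the TRiC subunits, 10 heat-inducible and 6 ER chaperones, the 5 highest members per kb in control, Hspg2 and the DEGs of each pathway list. Other names are marked as chosen after their values were seen. Alternatives were edgeR's exact test, DESeq2 1.42.0, 4 other scalings, other filters and thresholds, the replicate number as a block, and leaving out each library. Leaving out control replicate 1 and KO replicate 4 together was added after seeing the data.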

Additional observations from a re-analysis of the deposited data

Results flagged for a closer look

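Among the 68 groups of 4 libraries of the 34 named members, 8 had 1 library far from the other 3 by Dixon's criterion at 95% (gap over range above 0.83), where chance gives about 3.4. Of these, 6 were control replicate 1, the deepest library. It held 1313 CPM of Hspa8 against 1033 to 1076 in the other controls, 438 CPM of Hsp90b1 against 252 to 273, 361 CPM of Hspa5 against 220 to 223, 320 CPM of Tcp1 against 243 to 246, 175 CPM of Hspd1 against 124 to 131 and 11.1 CPM of Dnajb9 against 7.5 to 8.1. Control replicate 3 was high for Hspe1, with 155 CPM against 130 to 134. KO replicate 3 was high for Hspa1a, with 3.64 CPM against 1.09 to 1.41. The reason why these libraries stood apart was not tested.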

How the results depend on the processing

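Counts and medians of members depended on library scaling more than on the test. With library sizes alone, 0 members were downregulated by edgeR, the 4 of the TMM fit keeping an adjusted p under 0.05 at −0.97 to −0.74, and 19 were lower, and the median log2 fold change was −0.0264. With TMM factors from genes of at least 10 CPM, 1 member was downregulated and 21 were lower, with a median of −0.0556, and with upper quartile scaling the median was −0.21. All genes moved by medians of 0.29, 0.25 and 0.10 under these 3 scalings, and Cct3 reversed to 0.128 and 0.0946 and Hspd1 to 0.0319 and 0.00297 under the first and second. With a 1.5-fold threshold, 19 members were downregulated. Leaving out 1 library at a time gave 7 to 9 upregulated and 3 to 5 downregulated members, 11 to 14 higher and 32 to 34 lower, and medians from −0.36 to −0.20. Of 611 values over the 34 named members and 18 alternatives, 584 kept their direction and side of the threshold, 14 lost and 9 gained the call, and 4 reversed; 24 members kept both throughout. The cause of these changes was not tested. Replicate numbers did not pair the libraries (correlations of same-numbered deviations −0.07, −0.04, 0.11 and −0.12). With the replicate number as a block, 8 members were upregulated and 3 downregulated, 12 higher and 32 lower, Dnajc7 falling short of 2-fold. Control replicate 1 and KO replicate 4 deviated together (correlation 0.37), and without both, an alternative added after seeing the data, 8 members were upregulated and 3 downregulated. Depth limits members near 0.326 CPM, the level of 3 counts in the shallowest library.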
